A study of Mus musculus with 3 samples.

Results

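The axon guidance genes of cultured mouse melanocytes were described from RNA-seq of untreated melan-a cells. Members were chosen by gene symbol, with earlier results of these data known. They were the Eph receptors and ephrins, and the plexins, neuropilins and semaphorins (classes 3 to 7). The Robo receptors and Slits, and the Unc5 receptors and netrins 1 to 5, were also taken. This gave 68 of the 22698 genes measured, of which 33 encode receptors and 35 encode ligands. *Efna5* has 2 gene entries in the files, one of which was at 0 in every replicate, so the 68 genes came from 69 entries. The melan-a line is an immortalized melanocyte culture, labelled as C57BL/6J in strain background and as derived from Ink4a-ARF-/- mice. All samples were grown in RPMI medium with 10% fetal bovine serum, 200 nM of the phorbol ester tetradecanoylphorbol acetate and 200 pM cholera toxin, and none received another treatment. There was 1 group of 3 replicates, labelled 1, 3 and 4, each sequenced on 3 lanes. With 1 condition in 1 line, no contrast between treatments or genotypes could be made, and levels were compared among genes within each replicate.

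Axon guidance proteins were named for steering growing axons, but the same ligands and receptors guide many other cells, among them neural crest cells, from which melanocytes derive. Semaphorins signal through plexins, and the secreted class 3 members usually need a neuropilin as co-receptor. Eph receptors are tyrosine kinases that bind ephrins on the surface of a neighbouring cell, so that both cells can respond. Slits are secreted ligands of Robo receptors, and netrins act through Dcc, neogenin and the Unc5 family, the last of which mediates repulsion.

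Levels are given as FPKM, the reads on a gene per kilobase of its length and relative to the size of the library, as scaled by the authors with the trimmed mean of M values. From the whole-read steps of short genes, the scaled library sizes were estimated at 47000000 (replicate 3) to 66300000 reads (replicate 4). For the members, 3 reads then came to between 0.0027 FPKM (*Robo2*, replicate 4) and 0.041 FPKM (*Ntn5*, replicate 3). These limits cover counting error only, and they assume division by the length of the joined exons of a gene, which is not stated. Of 9 melanocyte markers, 8 were at or above 1 FPKM in all replicates, including *Tyrp1* at a mean of 3143.6 FPKM and *Dct* at 1412.1 FPKM, while *Kit* had a mean of 0.680 FPKM. Summed levels per replicate were 0.360 to 0.700 FPKM for 4 keratinocyte markers, 1.5 to 1.87 FPKM for 4 fibroblast markers and 0.010 to 0.030 FPKM for 4 endothelial markers. The leukocyte marker *Ptprc* was at 0. Among 4 neuronal markers *Tubb3* had a mean of 216.2 FPKM, whereas *Snap25* and *Elavl4* were at 0 and *Rbfox3* had 0.01 FPKM in replicate 4 alone. *Cdkn2a*, the gene of the Ink4a-ARF locus, had 19.24, 16.49 and 24.32 FPKM in replicates 1, 3 and 4. One value per gene does not tell exons that a deletion removes from those that it leaves, so this does not check the labelled genotype.

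At a threshold of 1 FPKM in all 3 replicates, 31 of the 68 genes (45.6%) were expressed, against 44.1% of all genes in the files. The shares were nearly equal for receptors (15 of 33, 45.5%) and ligands (16 of 35, 45.7%). In a bulk culture, fewer cells expressing a gene and less RNA of it per cell cannot be told apart. The median of log2(mean FPKM + 1) was 0.62 over the members and 0.35 over all genes. At or above 10 FPKM in all replicates were 11 of the 68 members, and 21.7% of all genes. At the lower end, 7 members were at 0 in every replicate, against 31.4% of all genes, namely *Epha5*, *Epha6*, *Ephb1*, *Unc5d*, *Sema3a*, *Sema5a* and *Sema5b*. A value of 0 in the files stands for anything that rounds to 0 at 2 decimals.

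The 12 genes with a mean of at least 10 FPKM, 8 of them receptors and 4 of them ligands, held most of the summed level. The first 3 alone, *Plxnd1*, *Nrp2* and *Plxnb2*, held 47% of it, and all of these are receptors for semaphorins. Below 1 FPKM the receptors fell into separate groups. There were 4 of them with means from 0.243 to 0.417 FPKM, and the other 14 had means of 0.0200 FPKM or less. Ligands were spread more evenly, with 15 at means between 0.0533 and 1.12 FPKM and 4 below that range.

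**Figure D1:**
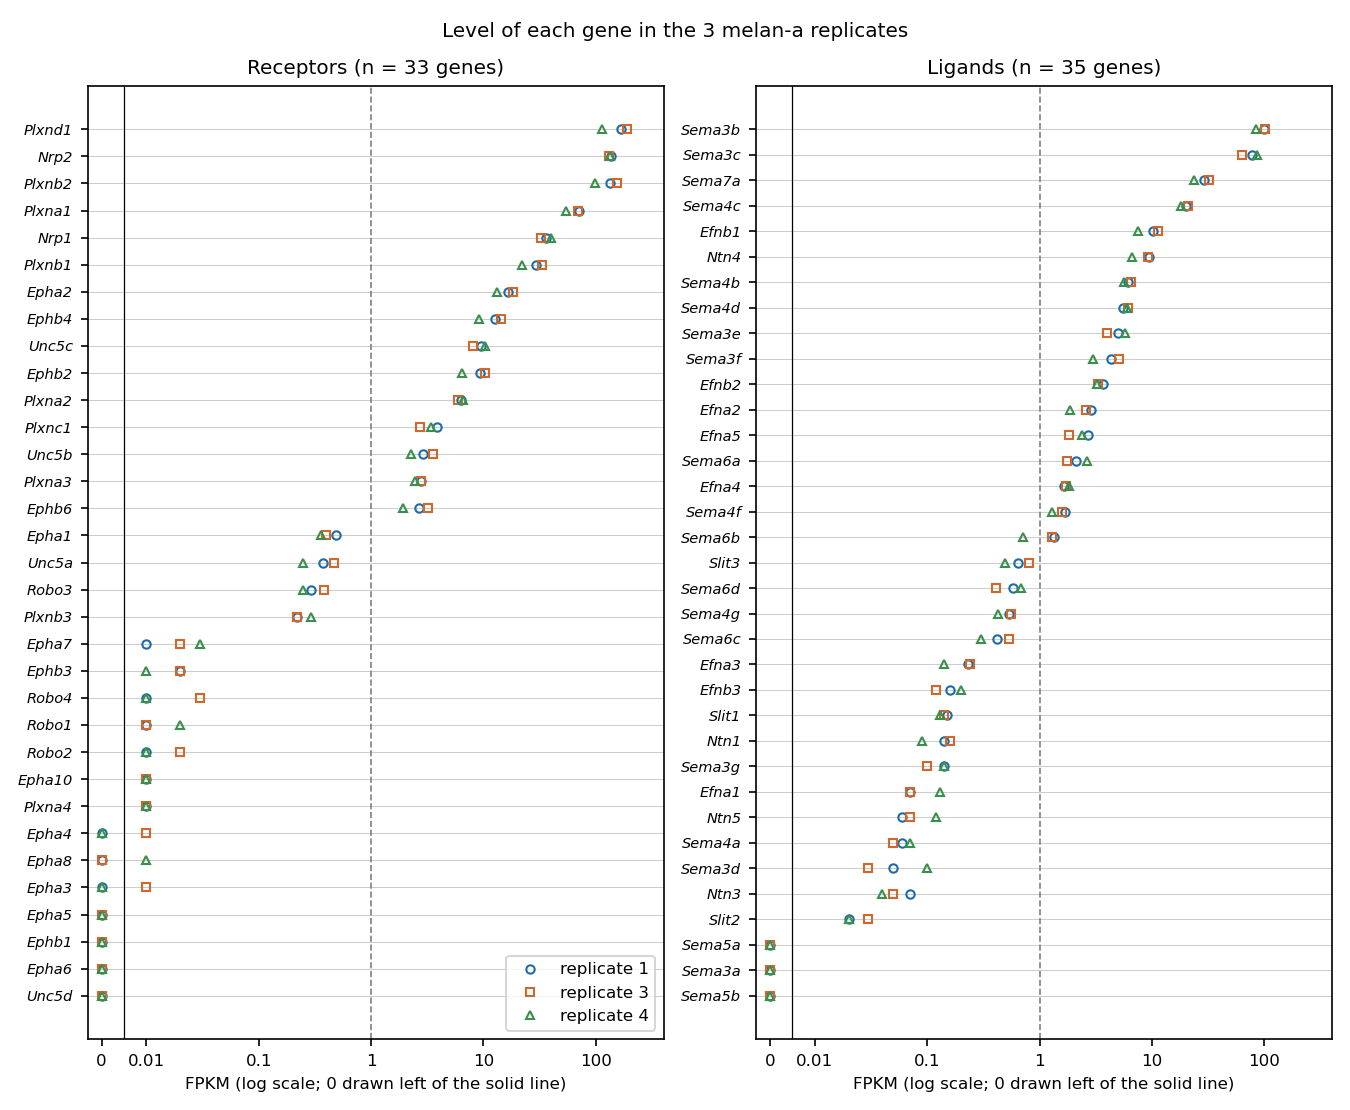
Level of each of the 33 receptors (left) and 35 ligands (right) in FPKM on a log axis, with 1 symbol per melan-a replicate, genes ordered by their mean and values of 0 drawn left of the solid line. The dashed line marks 1 FPKM, above which 15 receptors and 16 ligands lie in all 3 replicates. Between *Plxnb3* at 0.243 FPKM and *Epha7* at 0.0200 FPKM there is no receptor.

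Plexins had the highest summed level of the families, although the pair of neuropilins had a higher median (84.7 against 6.30 FPKM). Of 9 plexin genes, 7 (77.8%) were at or above 1 FPKM in all replicates, against 44.1% of all genes. None was at 0 throughout, against 31.4% of all genes. *Plxnd1*, which encodes the receptor of Sema3e and is best known from blood vessel patterning, had 167.04, 188.95 and 112.25 FPKM in replicates 1, 3 and 4, a mean of 156.1 ± 39.5 FPKM (SD, n = 3) and rank 335 of all genes. *Plxnb2*, which encodes a receptor of class 4 semaphorins, had 134.53, 153.23 and 98.29 FPKM. Both were highest in replicate 3 and lowest in replicate 4, and *Plxnd1* was 1.14 to 1.24 times as high as *Plxnb2* within each replicate. *Plxna1*, whose product pairs with neuropilins to receive class 3 semaphorins, followed with 71.37, 69.63 and 54.15 FPKM. *Plxnb1*, which encodes the receptor of Sema4d, had 29.49, 33.40 and 21.97 FPKM. Lower levels were found for *Plxna2* (mean 6.30 FPKM), *Plxnc1* (3.33 FPKM) and *Plxna3* (2.67 FPKM). *Plxnb3* had 0.243 FPKM and *Plxna4* 0.010 FPKM in the mean. Of the exon bases of *Plxna1*, 10.7% are shared with a gene on the opposite strand, and whether counting used the strand is not given in the sources used here.

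Both neuropilins were expressed. *Nrp2*, which encodes the preferred co-receptor of Sema3f, had 137.19, 129.79 and 133.38 FPKM, a mean of 133.5 ± 3.70 FPKM (SD, n = 3). Its coefficient of variation (CV, the SD as a percentage of the mean) was 2.77%, the lowest among the expressed members in the values as deposited. After correction for GC content it was 4.2%, and 6 other members were lower, among them *Nrp1* at 0.444%. *Nrp1*, which encodes the co-receptor of Sema3a and of VEGF-A, had 35.64, 32.16 and 39.80 FPKM. *Nrp2* was 3.35 to 4.04 times as high as *Nrp1* within a replicate, and the ranges of the pair were far apart. The order at the top can depend on the length by which reads are divided. The length behind the deposited values is not given. If it was that of the joined exons, replacing it by the longest transcript brings *Nrp2* to 188.8 FPKM, the highest member.

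Semaphorins were the largest family, and 10 of 20 (50%) were at or above 1 FPKM in all replicates, near the 44.1% of all genes. The secreted class 3 made up 180.9 ± 6.51 of the 247.2 ± 8.12 FPKM summed over the family (SD, n = 3). *Sema3b* had 100.17, 102.15 and 84.46 FPKM, and *Sema3c* had 78.16, 63.56 and 86.47 FPKM. *Sema3b* was higher than *Sema3c* in replicates 1 and 3 but not in replicate 4. After correction for GC content it was higher in 3 of 3 replicates, at 89.8 to 98.3 FPKM against 73.8 to 77.5 FPKM, so the order of these genes depended on that step. *Sema3e*, whose product binds plexin-D1 directly, had 4.99, 3.95 and 5.78 FPKM, and *Sema3f* had 4.28, 5.08 and 3.01 FPKM. The other class 3 genes were low or silent, with means of 0.127 FPKM for *Sema3g* and 0.060 FPKM for *Sema3d*, and with *Sema3a*, a classical repellent of sensory axons, at 0 in all replicates. For *Sema3a*, 3 reads would have given 0.0045 to 0.0063 FPKM, close to the rounding step of the files.

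Membrane-bound semaphorins were present at lower levels. *Sema7a*, which encodes a semaphorin anchored to the membrane by a lipid, had 29.01, 32.14 and 23.47 FPKM. Its known receptors are plexin-C1, with *Plxnc1* at 3.85, 2.74 and 3.41 FPKM, and integrin beta1, with *Itgb1* at 449.09, 414.02 and 495.31 FPKM. Among the 6 class 4 genes, which encode transmembrane proteins, 4 (66.7%) were at or above 1 FPKM in all replicates, against 44.1% of all genes. The highest was *Sema4c* with 20.28, 21.08 and 17.99 FPKM, followed by *Sema4b* (mean 6.09 FPKM), *Sema4d* (5.88 FPKM) and *Sema4f* (1.52 FPKM). In class 6 *Sema6a* alone passed, with a mean of 2.17 FPKM. *Sema6b* stood just at the threshold, with 1.35, 1.29 and 0.71 FPKM. Both class 5 genes were at 0.

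The promoters of 4 members are shown because they span the range of levels, with 3 of the 5 highest genes and *Sema3a*, which was at 0. Each is the stretch from 250 bases before to 50 after a start site, taken from RefSeq on GRCm38.p6 and written 5′ to 3′ on the strand of the gene, with CG dinucleotides in capitals. They lie at chr6:115994956-115995255 (minus strand) for *Plxnd1*, chr1:62703067-62703366 (plus strand) for *Nrp2*, chr5:17574566-17574865 (plus strand) for *Sema3c* and chr5:13396534-13396833 (plus strand) for *Sema3a*.
*Plxnd1*: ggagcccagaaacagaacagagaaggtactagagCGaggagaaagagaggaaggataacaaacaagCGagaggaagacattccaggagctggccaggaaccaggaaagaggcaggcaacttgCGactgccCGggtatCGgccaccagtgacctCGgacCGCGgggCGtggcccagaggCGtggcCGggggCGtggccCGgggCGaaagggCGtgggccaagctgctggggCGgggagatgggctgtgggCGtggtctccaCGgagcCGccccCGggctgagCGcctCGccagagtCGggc
*Nrp2*: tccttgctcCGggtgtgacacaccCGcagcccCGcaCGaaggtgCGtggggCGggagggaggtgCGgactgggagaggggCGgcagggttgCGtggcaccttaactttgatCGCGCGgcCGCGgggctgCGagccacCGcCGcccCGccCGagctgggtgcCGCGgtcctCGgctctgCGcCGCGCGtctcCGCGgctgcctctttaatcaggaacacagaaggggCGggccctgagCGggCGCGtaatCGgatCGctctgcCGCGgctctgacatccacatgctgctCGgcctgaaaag
*Sema3c*: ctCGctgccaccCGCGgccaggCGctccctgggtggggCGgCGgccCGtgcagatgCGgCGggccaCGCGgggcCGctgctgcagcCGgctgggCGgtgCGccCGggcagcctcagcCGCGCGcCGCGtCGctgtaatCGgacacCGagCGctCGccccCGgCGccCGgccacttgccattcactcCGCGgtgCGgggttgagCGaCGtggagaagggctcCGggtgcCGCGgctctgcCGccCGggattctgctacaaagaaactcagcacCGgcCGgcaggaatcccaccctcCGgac
*Sema3a*: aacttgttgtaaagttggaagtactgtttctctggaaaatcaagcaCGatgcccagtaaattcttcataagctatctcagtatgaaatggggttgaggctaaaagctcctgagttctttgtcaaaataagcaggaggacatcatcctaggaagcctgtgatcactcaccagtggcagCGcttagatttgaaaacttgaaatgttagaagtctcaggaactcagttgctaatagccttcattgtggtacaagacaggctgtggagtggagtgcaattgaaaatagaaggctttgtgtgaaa
The windows hold 23, 37, 42 and 2 CG dinucleotides in this order. Other members at 0 held more than *Sema3a*, with 30 for *Epha5*, 27 for *Sema5b*, 23 for *Sema5a*, 15 for *Epha6* and 14 for *Ephb1*. The low count of *Sema3a* is thus not typical of members at 0. A *Sema3a* transcript can also start elsewhere, and its other starts were not examined.

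The promoter table held 59 of the 68 members. With the window richest in CG taken for each gene, the 27 expressed members had a median of 25.0 CG dinucleotides (range 3 to 42) and the other 32 a median of 17.5 (range 2 to 56). Over all genes of the table with a value in the files, the medians were 23.0 for the 7191 expressed and 5.0 for the 7654 others. Members below the threshold thus had a higher median than genes below it in general, and *Epha8*, with 56, had a mean of 0.00333 FPKM. The sequence GCCNNNGGC, a form of the TFAP2 motif that reads the same on both strands, was found in 9 of the 27 expressed members (33.3%) and in 9 of the 32 others (28.1%). All genes of the table held it in 18.5%, expressed genes in 30.4% and other genes in 16.4%. The most matches, 3, were in *Sema4g* (mean 0.510 FPKM). The windows of *Plxnd1* and *Sema7a* held 2, as did those of *Epha8* (0.00333 FPKM) and *Ntn3* (0.0533 FPKM), so several matches were found at both high and low levels. CATGTG, searched on both strands as the core that MITF can bind, was found in 3 of 27 expressed members (11.1%) and in 3 of 32 others (9.38%), against 9.35% of expressed genes, 16.4% of other genes and 15.9% of all genes of the table. The *Nrp2* window held 1. These are matches of letters, and binding was not measured here.

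**Figure D2:**
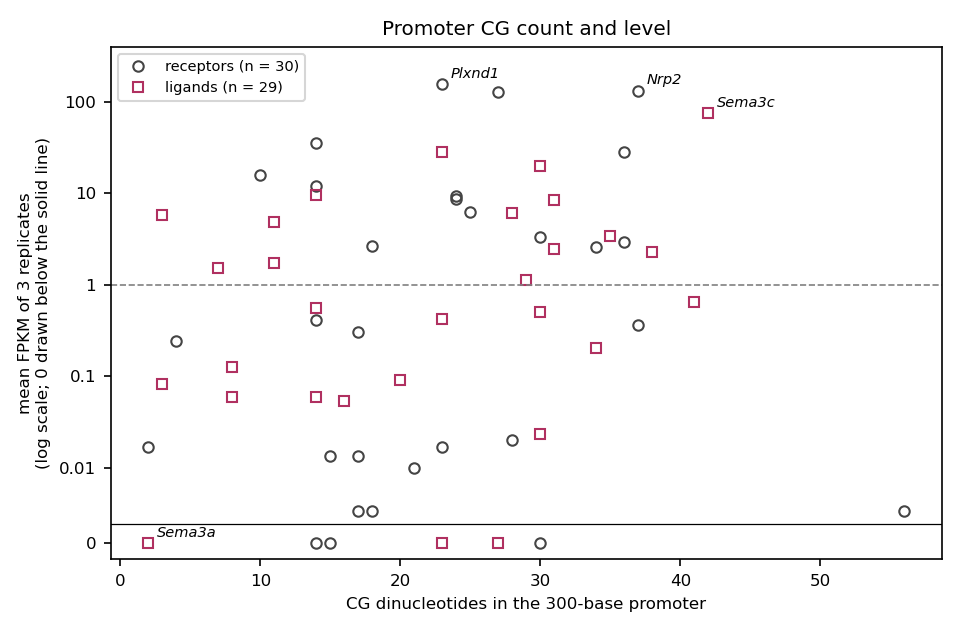
Number of CG dinucleotides in the 300-base promoter (horizontal axis, richest window of a gene) against the mean FPKM of 3 replicates (vertical log axis, 0 drawn below the solid line) for 30 receptors and 29 ligands. Expressed members, above the dashed line at 1 FPKM, and the others overlap over most of the horizontal axis, and *Sema3c* with 42 and *Sema3a* with 2 lie at opposite corners.

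Of the 14 Eph receptor genes, 4 (28.6%) were at or above 1 FPKM in all replicates, against 44.1% of all genes. At 0 in all replicates were 3 of them, and 31.4% of all genes. Of the 9 EphA genes, which prefer ephrin-A ligands, *Epha2* alone passed the threshold, with 16.48, 18.42 and 13.13 FPKM, and it held 97.2% of the EphA sum. *Epha1* came next with 0.49, 0.40 and 0.36 FPKM. Of the 5 EphB genes, 3 passed. *Ephb4*, which encodes the receptor of ephrin-B2, had 12.69, 14.25 and 9.05 FPKM, and *Ephb2* had 9.27, 10.21 and 6.48 FPKM. *Ephb6*, whose product lacks kinase activity, had 2.65, 3.19 and 1.94 FPKM. *Epha2* was 1.29 to 1.45 times as high as *Ephb4*, and *Ephb4* 1.37 to 1.40 times as high as *Ephb2*, within each replicate, although the ranges over replicates overlapped in the deposited values. *Ephb3* and *Epha7* had means of 0.0167 and 0.0200 FPKM, which correspond to roughly 4 to 20 reads in a replicate, as far as values rounded to 2 decimals allow.

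Ephrins were low, but all 8 had reads. The 3 ephrin-B genes encode transmembrane ligands, and *Efnb1* led them with 10.16, 11.26 and 7.53 FPKM, 2.32 to 3.38 times the level of *Efnb2* (3.65, 3.33 and 3.25 FPKM). *Efnb3* had a mean of 0.160 FPKM. Of the 5 lipid-anchored ephrin-A genes, *Efna2* (mean 2.45 FPKM), *Efna5* (2.31 FPKM) and *Efna4* (1.74 FPKM) passed the threshold, and *Efna3* (0.203 FPKM) and *Efna1* (0.0900 FPKM) did not. The *Efna5* value is uncertain, because 59.9% of its exon bases are shared with its other entry, and how reads on shared bases were assigned was not tested. *Efna4* and *Efna3* share 10.5% and 14.1% of their exon bases with a gene on the opposite strand.

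The Robo and Slit system was near silent. None of the 4 receptors and none of the 3 ligands reached 1 FPKM in any replicate. *Robo3*, known from commissural axons, had 0.29, 0.38 and 0.25 FPKM, and *Robo1*, *Robo2* and *Robo4*, the last of which is typical of endothelium, had between 0.01 and 0.03 FPKM. For *Robo4* this corresponds to 2, 6 and 3 reads in replicates 1, 3 and 4, at or near the limit of 3 reads. Among the ligands *Slit3* had 0.64, 0.80 and 0.49 FPKM, *Slit1* a mean of 0.140 FPKM and *Slit2* 0.0233 FPKM. *Slit3*, at about 197 to 228 reads in a replicate, was well above the limit of 3 reads.

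The Unc5 receptors and the netrins were each led by 1 gene. *Unc5c* had 9.51, 8.10 and 10.28 FPKM and *Unc5b* 2.89, 3.56 and 2.28 FPKM, so *Unc5c* was 2.28 to 4.51 times as high. *Unc5a* had a mean of 0.363 FPKM. *Dcc*, the attractive netrin receptor, was at 0 in all replicates, whereas its relative *Neo1* (neogenin) had 19.35, 19.28 and 17.85 FPKM, 1.74 to 2.38 times the level of *Unc5c*. *Ntn4*, which encodes a netrin found in basement membranes, had 9.33, 9.31 and 6.59 FPKM and held 96.9% of the netrin sum. *Ntn1*, the founding netrin, had 0.14, 0.16 and 0.09 FPKM, and *Ntn4* was 58.2 to 73.2 times as high. *Ntn5* (mean 0.0833 FPKM) shares 25.9% of its exon bases with a gene on the opposite strand.

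Receptors were then set against ligands by their summed FPKM in each replicate. Over all members the receptors summed to 643.2, 678.0 and 516.7 FPKM and the ligands to 287.4, 278.6 and 264.1 FPKM, a mean log2 ratio of 1.14 ± 0.16 (SD, n = 3), or 2.20 times as much. Receptors were higher in 3 of 3 replicates, for which an exact two-sided sign-flip permutation test gives p = 0.25, the smallest that 3 replicates allow. The same p holds for each of the 4 systems. Plexins and neuropilins summed to 588.5, 618.9 and 472.6 FPKM against 255.5, 246.8 and 239.3 FPKM of semaphorins (log2 ratio 1.17 ± 0.17). Eph receptors summed to 41.6, 46.5 and 31.0 FPKM against 21.5, 21.2 and 17.4 FPKM of ephrins (log2 ratio 0.98 ± 0.15). Unc5 receptors summed to 12.8, 12.1 and 12.8 FPKM against 9.60, 9.59 and 6.84 FPKM of netrins (log2 ratio 0.55 ± 0.31). The other netrin receptors, *Dcc* and the more highly expressed *Neo1*, were not part of this sum. The Robo and Slit system went the other way, with 0.320, 0.440 and 0.290 FPKM of receptors against 0.810, 0.970 and 0.640 FPKM of ligands (log2 ratio -1.21 ± 0.11). *Robo3* held 87.6% of this receptor sum, and which of these receptors bind Slits was not examined.

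The median gene gave another order than the sums, with a median log2(mean FPKM + 1) of 0.45 for receptors and 0.72 for ligands. This order turned when only members above 0 in all replicates were kept, with 1.92 for receptors and 1.21 for ligands. In the Eph and ephrin system, the mean of log2(FPKM + 1) was lower for receptors than for ligands by 0.43 on the log2 scale, the reverse of the sums, since 10 of the 14 receptors did not pass the threshold. Leaving out the highest receptor and the highest ligand turned no ratio of sums. The log2 ratio was then 1.33 over all members, 1.41 for plexins, neuropilins and semaphorins and 1.17 for Ephs and ephrins. It moved most in the smaller systems, to 3.59 for Unc5 and netrins and to -1.97 for Robo and Slit.

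**Figure D3:**
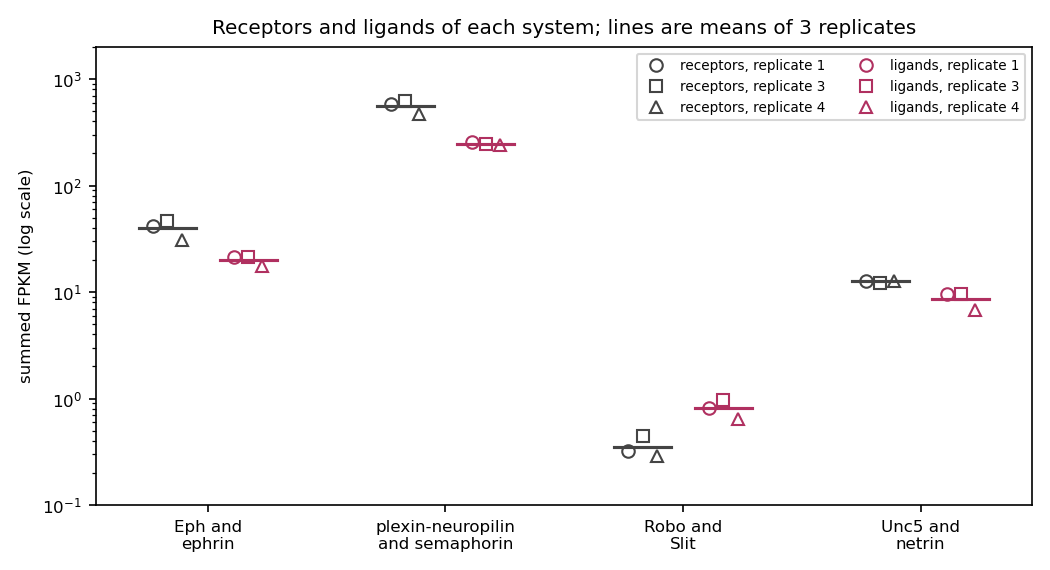
Summed FPKM (log axis) of receptors (grey) and ligands (red) in each of 4 ligand-receptor systems, with 1 symbol per replicate and a line at the mean of 3 replicates. Receptors lie above ligands in every replicate for all systems except Robo and Slit, where ligands lie above.

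Other genes of these pathways were taken from lists chosen by name, with earlier results of these data known. The shares of these lists that passed 1 FPKM are therefore descriptions only and cannot show enrichment. Of 21 further ligands, receptors and co-receptors, 10 were at or above 1 FPKM in all replicates and 5 were at 0, namely *Dcc*, *Dscam*, *Dscaml1*, *Timd2* and *Flrt2*. The highest were *Itgb1* (mean 452.8 FPKM) and *L1cam*, an adhesion molecule that associates with neuropilin-1, with 164.32, 161.25 and 161.18 FPKM. Of 45 intracellular mediators, 35 passed (77.8%, against 44.1% of all genes). The highest were *Cfl1*, which encodes the actin-severing protein cofilin, with a mean of 2038.9 FPKM, and *Rhoa*, a GTPase acting downstream of several guidance receptors, with 295.8 FPKM. *Vav3* was the only mediator at 0 in all replicates. Many of these mediators also serve general functions of the cytoskeleton.

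Several members lie within 1 Mb of another member, and in some of these neighbourhoods the levels differed widely. On chromosome 9 of mm9, *Sema3b* (107500005 to 107511560) and *Sema3f* (107583833 to 107612806) are on the minus strand, and *Sema3b* was 20.1 to 28.1 times as high. On chromosome 5, *Sema3d* (12383166 to 12588943), *Sema3a* (13125593 to 13602565) and *Sema3e* (14025276 to 14256689) follow in this order on the plus strand. Of these, *Sema3e* alone passed 1 FPKM. On chromosome 4, *Ephb2* (136203454 to 136391903) had a mean of 8.65 FPKM, and the nearby *Epha8* (136485334 to 136512731) had 0.00333 FPKM. On chromosome 3, *Efna4* (89137312 to 89141950) had 1.74 FPKM, and the adjacent *Efna3* (89117821 to 89126887) and *Efna1* (89075655 to 89085064) had 0.203 and 0.0900 FPKM. *Robo3* and *Robo4* on chromosome 9 and *Robo1* and *Robo2* on chromosome 16 were all below 1 FPKM.

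The spread between replicates limited the order of levels. Of the 11 neighbouring pairs among the 12 highest genes, 2 had ranges that did not overlap, *Plxna1* above *Nrp1* and *Sema7a* above *Sema4c*. The count was 6 without replicate 3 and 7 without replicate 4, and it was 9 after the correction for GC content described in the next paragraph, when *Nrp2* with *Plxnb2* and *Plxnb1* with *Sema7a* still overlapped. The median CV of the 31 expressed members was 16.7% (range 2.77% to 25.3%), against 11.4% for all 10011 genes that passed the same threshold. Without replicate 4 it was 7.26%. The members with the largest CV were *Sema3f* and *Plxnd1*, both at 25.3%, and *Ephb6* at 24.2%, and each was highest in replicate 3 and lowest in replicate 4.

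The difference between replicates 3 and 4 moved with the GC content of the transcript. Of 19 expressed members with at least 55% GC, 18 were higher in replicate 3, the exception being *Efna4*. Of 9 members below 50% GC, 8 were higher in replicate 4, the exception being *Efnb2*. Across the 31 members, which share the same libraries, Spearman's rho between GC content and the log2 ratio of replicates 3 and 4 was 0.867, and across the 10006 expressed genes with a GC value it was 0.780. The median GC content was 56.9% for the members and 50.5% for all expressed genes. After each replicate was corrected for its dependence on GC content, the median CV was 8.17% for the members and 7.21% for all genes, and 27 of the 31 members had a smaller CV than before. *Plxnd1* then had 160.8, 159.8 and 137.8 FPKM, *Nrp1* 35.6, 35.9 and 35.7 FPKM and *Sema3c* 77.5, 75.1 and 73.8 FPKM. The receptor to ligand log2 ratio over all members stayed at 1.14. The correction is centred on the mean of the replicates and could hardly move this ratio, so its dependence on GC content was not tested. Replicates 3 and 4 also had the smallest and the largest estimated scaled library size. With 3 libraries, a difference in GC dependence cannot be told apart from one in library size. Why the replicates differed in GC dependence was not tested.

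**Figure D4:**
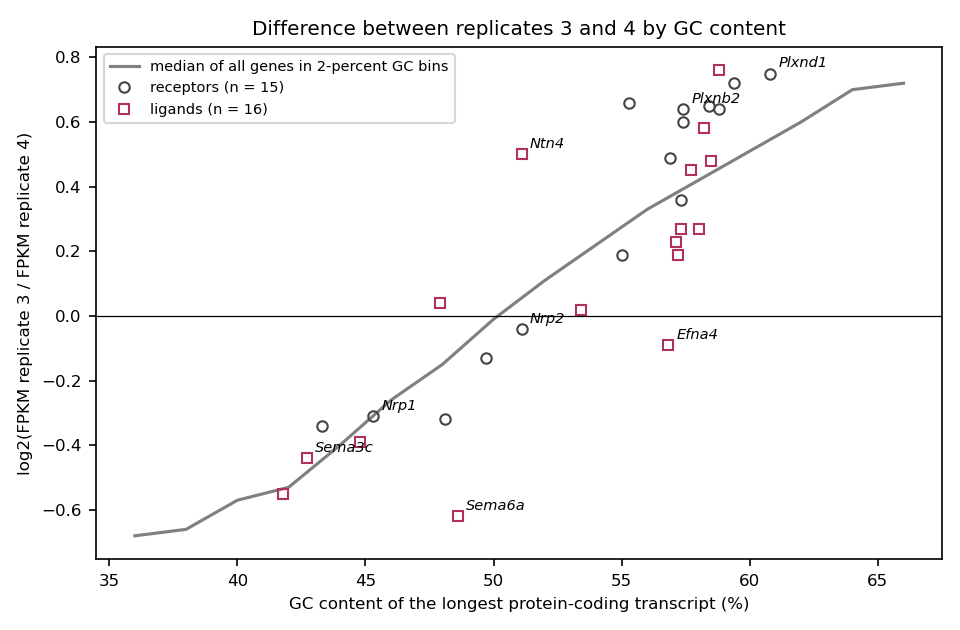
Log2 ratio of FPKM in replicate 3 to replicate 4 (vertical axis) against the GC content of the longest protein-coding transcript (horizontal axis, %) for 15 receptors and 16 ligands at or above 1 FPKM in all replicates. The grey line joins the medians of all genes in GC bins, and the members follow it from *Sema3e* (lowest GC content, -0.55) to *Plxnd1* (0.75), with *Sema6a* and *Efna4* below it and *Ntn4* above it.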

How the data were processed

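RNA-seq of 3 melan-a replicates was analysed. The authors deposited FPKM values with TMM scaling, 1 per gene and replicate, given to 2 decimals. Per the methods and processing notes, the 10 5'-most bases of each read were trimmed, reads of stranded mRNA libraries were aligned to mm9 with STAR 2.3.0e, reads from rRNA were discarded, and HTSeq 0.5.3p3 counted reads on the genes of Ensembl release 67. The conversion to FPKM, including the length used, is not given in the sources used here. As FPKM values hold no counts, no count test was run.

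Symbols, positions, joined-exon lengths and GC content were taken from GENCODE for mm9 (Ensembl release 65), in which 22324 of 22698 genes were found. Where a symbol had several entries, the entry with the higher mean was used. *Draxin* was matched through its older symbol in RefSeq. Library sizes were estimated as those at which FPKM times length came closest to whole reads over 66 to 77 short genes with 1 transcript, with a mean distance of 0.0367 to 0.0531 reads. Read numbers of members were derived from these sizes and the joined-exon lengths. For genes with several transcripts the length used by the authors is not known, so these read numbers rest on an assumption. The GC correction subtracted the running median of the log2 deviation from the mean of the replicates. The library size estimate and the GC correction were tested on simulated data.

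The labels number the replicates and the series calls them bioreplicate lines. Whether they came from separate cultures is not stated, so the spread may be partly technical. A further list of cell type markers is not reported here. Members and gene lists were chosen with earlier results of these data known. Genes given with all replicates were those with a mean of at least 10 FPKM, the highest receptor and ligand of each system, the genes next to 1 FPKM, the 3 with the largest CV, and *Dcc* and *Neo1*. Of each pathway list, the 2 highest genes and those at 0 were named. *Sema3e*, *Plxnc1*, *Ephb2*, *Efnb2*, *Unc5b*, *Ntn1*, *Epha1* and the genes of the neighbourhood and promoter paragraphs were added after their values were seen. Alternatives covered the threshold, scaling, GC content, gene length, pseudocount, summary and each replicate left out. Python 3.11.15, numpy 2.4.6, pandas 2.3.3, scipy 1.17.1 and matplotlib 3.10.9 were used.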

Additional observations from a re-analysis of the deposited data

How the results depend on the processing

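Counts of expressed members, receptors, ligands and pathway genes stayed within 1.5 times their value under the alternatives run. Leaving out a replicate could not change the direction of a receptor to ligand ratio, since each ratio had the same direction in all 3 replicates. Among the ratios 1 reversed: the Eph and ephrin ratio of 0.98 became -0.43 as a difference of mean log2(FPKM + 1), a measure that weights the many low receptors like the high ones. The median log2 level of receptors and of ligands moved from 0.45 and 0.72 to 0.97 and 1.43 after rescaling each replicate to a sum of 1000000, to -1.11 and -0.43 with a pseudocount of 0.1, and to 1.92 and 1.21 when only members above 0 in all replicates were kept, which put receptors above ligands and follows from the removal of more receptors. With the longest transcript as length the ligand median was 0.94, if the deposited values were divided by joined-exon length, which is not stated. The median CV was 8.17% after GC correction and ranged from 7.26% to 21.6% with a replicate left out. The count of 2 neighbouring pairs apart among the 12 highest genes became 9 after GC correction and ranged from 2 to 7 with a replicate left out, alternatives chosen after seeing the data. Of 120 values of single members, 27 moved by more than 1 SD. All 20 moved under rescaling, which changes the unit, and 7 of 20 moved with the longest transcript. With 3 replicates, leaving 1 out cannot move a mean by more than 1 SD. The GC correction is centred on the mean of the replicates and could hardly move it. The unmoved values under those alternatives thus say nothing about stability. The Robo and Slit ratio had no value among members at or above 1 FPKM, since none passed. No paired analysis was possible because there is 1 group of samples, so replicate numbers pair nothing across groups. Receptor and ligand sums were compared within each replicate. Values of 0.03 FPKM or less lie within 3 rounding steps of 0, whether or not the reads exceed the limit of 3.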
